A study of Homo sapiens with 12 samples.

Results

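The 8 genes described here encode secreted antagonists of WNT signalling: DKK1, DKK3, DKK4, NOTUM, SFRP1, SFRP5, WIF1 and FRZB. They were taken by symbol from the gene table of the series, which has 25528 rows, and all 8 have a row in it. RNA was sequenced in 12 libraries, all from the human colon adenocarcinoma cell line HT-29, which the labels give as APC mutant in every group. Cells of the GFP group (the control) and of the CTNNB1 group were infected with lentivirus carrying that open reading frame and were collected on day 2 after infection. Cells of the shNT1 group (the control) and of the shAPC group were infected with lentivirus carrying a short hairpin RNA and were collected on day 1 after 2 µM doxycycline was added to induce it. The 4 groups held 3 libraries apiece. The labels do not say whether these came from separate cultures, so p-values measure only the spread between these libraries, which may be technical. All groups are of a single cell line, and the hairpin pair differs from the open reading frame pair in vector, collection day and doxycycline, so levels set side by side across the pairs carry those differences.

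WNT proteins signal through a Frizzled receptor and the co-receptors LRP5 and LRP6. Signalling stops the destruction complex, of which APC is a part, from degrading beta-catenin, the product of CTNNB1, which then acts with TCF/LEF factors on target genes. Secreted antagonists act outside the cell at different steps. DKK1 and DKK4 bind LRP5 and LRP6 and, with the KREMEN receptors, take them off the surface, whereas the related DKK3 is a poor ligand of LRP6. NOTUM is an esterase that removes the lipid from WNT proteins, and SFRP1, SFRP5, FRZB (also called SFRP3) and WIF1 bind WNT proteins directly. DKK1 and NOTUM are known targets of beta-catenin, which makes them feedback inhibitors. The genes of the SFRP family, WIF1 and DKK3 are known to be silenced with promoter methylation in many colorectal tumours. Methylation was not measured here.

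RefSeq entries for the sequence at the transcription start were available for 4 of the 8 genes. For 2 of these, DKK1 and SFRP5, the 250 bases before the start lie outside the gene as GENCODE v29 places it, and they are given here (RefSeq, GRCh38.p14, 5′ to 3′ on the strand of the gene). For WIF1 and FRZB, GENCODE v29 starts the gene further upstream, so that the window lies inside it, and no sequence is shown. The pair sets the one abundant member beside one that was at 0 in nearly all libraries. Capitals mark CTTTG, the core of the motif of the TCF/LEF factors through which beta-catenin reaches DNA, or its reverse complement CAAAG.
DKK1, chr10:52314031-52314280, plus strand: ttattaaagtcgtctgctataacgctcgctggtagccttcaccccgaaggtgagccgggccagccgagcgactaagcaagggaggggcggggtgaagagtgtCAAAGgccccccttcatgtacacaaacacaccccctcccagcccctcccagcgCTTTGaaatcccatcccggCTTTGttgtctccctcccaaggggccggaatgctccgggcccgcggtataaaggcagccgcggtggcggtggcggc
SFRP5, chr10:97772000-97772249, minus strand: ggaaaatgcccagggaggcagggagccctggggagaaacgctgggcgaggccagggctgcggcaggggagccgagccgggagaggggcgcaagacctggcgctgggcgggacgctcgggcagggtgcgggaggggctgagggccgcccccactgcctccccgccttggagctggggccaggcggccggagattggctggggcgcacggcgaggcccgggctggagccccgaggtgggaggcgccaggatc

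The DKK1 window held the core 3 times, with first bases 148, 95 and 76 bases before the start. At 2 of these places the match extended to CTTTGA or its reverse complement TCAAAG. No match was found in the SFRP5 window. Among all 35116 windows of the same 250 bases, 42.1% held CTTTG or CAAAG on either strand and 11.2% held the longer form. These shares count windows with any match, and the share with as many matches as DKK1 was not computed. The windows held 18 CpG dinucleotides for DKK1 and 21 for SFRP5, with a median of 11 over all windows. Fewer were held by 63.2% of all windows for DKK1 and by 69.8% for SFRP5. These counts describe the letters in the windows, and no binding was measured.

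Only 2 of the 8 antagonists reached a mean of 1 TPM in any group. TPM, the transcript abundance in which the values were deposited, is a level scaled for transcript length and to the same total in every library. DKK1 was abundant in all 4 groups, and NOTUM exceeded 1 TPM in the CTNNB1 and shAPC groups alone. The other 6 (DKK3, DKK4, SFRP1, SFRP5, WIF1 and FRZB) stayed under 0.2 TPM in every library and are treated here as not expressed above that level. Of the 8 genes, SFRP1 was the one listed at 0 in all 12 libraries, as were 6724 genes of the table (26.3%).

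**Figure D1:**
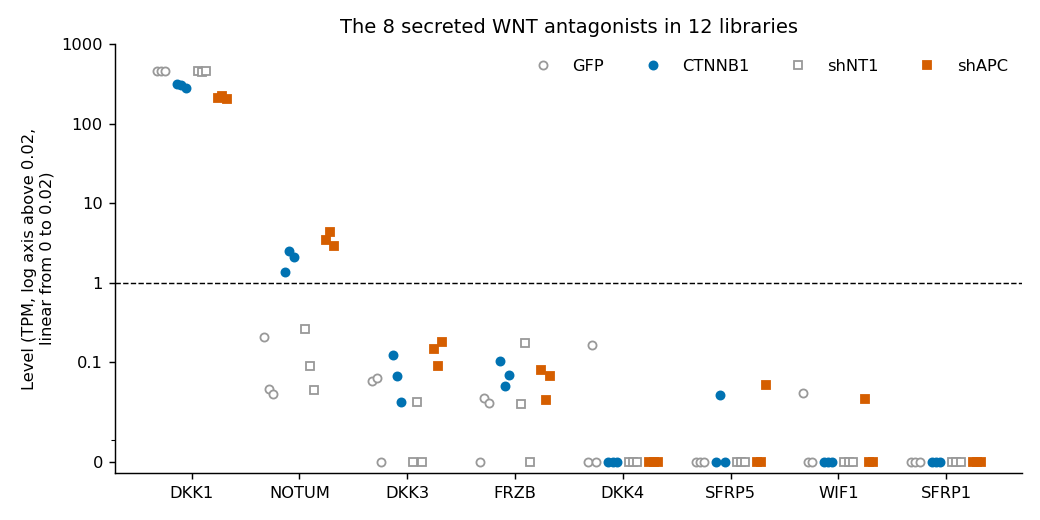
Level of each of the 8 antagonists in each of the 12 libraries, in TPM, on an axis that is logarithmic above 0.02 and linear below it, with a dashed line at 1 TPM. DKK1 lies above 200 TPM everywhere, NOTUM crosses 1 TPM in the CTNNB1 and shAPC libraries, and the other 6 genes lie under 0.2 TPM.

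The libraries were first checked against their labels. The number of genes above 0 TPM ran from 14756 to 16186 over the libraries. Depth cannot be read from TPM and is unknown, and no detection floor is given. APC fell in shAPC by 1.32 on the log2(TPM + 1) scale (SE 0.08, limma adjusted p = 6.1e-06). The CTNNB1 transcript was at 146 ± 2.9 TPM with GFP and 160 ± 4.2 TPM with CTNNB1 (SD, n = 3 each). This difference of 0.13 on the log2(TPM + 1) scale was not called (limma adjusted p = 0.059). The libraries did not overlap, as held in the higher direction for 30.2% of the genes tested in that pair. Of 12 colon epithelial markers 9 had a mean of at least 1 TPM, with CDX1, CDX2 and CDH17 below it. None of 8 fibroblast markers and none of 4 endothelial markers reached a mean of 1 TPM, and the summed fibroblast markers lay between 0.657 and 1.60 TPM over all libraries. Of 5 immune markers, CD68 and LYZ exceeded 1 TPM. CD3E was at 0 in every library. The summed immune markers, nearly all LYZ, lay between 6492 and 6580 TPM in GFP, 6796 and 7730 in CTNNB1, 6800 and 7098 in shNT1, and 7286 and 8027 in shAPC.

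DKK1 (ENSG00000107984; chromosome 10, 52314296 to 52318042, plus strand, GRCh38, GENCODE v29) fell in both comparisons. Its level was 451, 454 and 456 TPM in the 3 GFP libraries and 312, 301 and 281 TPM in the 3 CTNNB1 libraries. It was 452, 442 and 451 TPM in the shNT1 libraries and 211, 219 and 203 TPM in the shAPC libraries. Every CTNNB1 library lay below every GFP library, and every shAPC library below every shNT1 library. Without overlap 13% of the genes tested were lower in the first pair and 26.4% in the second. In RNA from bulk cells, fewer cells with a transcript and less of it per cell cannot be told apart. The mean level was 34.2% lower in CTNNB1 than in GFP and 52.9% lower in shAPC than in shNT1.

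Markers moved in the same libraries. CD68, 1 of the 2 immune markers tested, fell from 27.0 to 13.2 TPM with CTNNB1 (-0.98, limma adjusted p = 2.4e-05). With shAPC it fell from 13.8 to 7.51 TPM (-0.81, limma adjusted p = 0.00067). LYZ, the other one, went the other way. It was called higher with CTNNB1 (0.16, limma adjusted p = 0.041) and was not called with shAPC (0.13, limma adjusted p = 0.16). Of the 9 colon epithelial markers tested, 3 were called higher and 3 lower with CTNNB1, and 0 higher and 5 lower with shAPC. Over all genes tested, 16.3% were called higher and 7.16% lower with CTNNB1. With shAPC the shares were 7.24% higher and 14.9% lower. The part of any of these markers in the DKK1 result was not tested.

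In order of level, GFP and shNT1 came first with overlapping ranges, then CTNNB1, then shAPC. DKK1 ranked between 295 and 318 from the top among all genes in the control libraries. It ranked between 477 and 528 in the CTNNB1 libraries and between 654 and 688 in the shAPC libraries, so it stayed among the abundant transcripts in each.

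On the log2(TPM + 1) scale the DKK1 difference was -0.60 in the CTNNB1 comparison (SE 0.05, 95% interval -0.71 to -0.50, limma adjusted p = 3.5e-05). In the shAPC comparison it was -1.08 (SE 0.05, 95% interval -1.19 to -0.98, limma adjusted p = 6.3e-07). A gene was called when its limma p, adjusted by Benjamini-Hochberg over all genes tested, was under 0.05. By that rule 23.5% of 11624 genes were called in the CTNNB1 comparison, 7.16% lower. In the shAPC comparison 22.1% of 11834 genes were called, 14.9% lower. By size of fall DKK1 ranked 136 among the genes tested in the first comparison and 22 in the second. The authors' deposited tables gave log2 differences of -0.68 (adjusted p = 0.00036) and -1.05 (adjusted p = 0.00041).

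The fall of DKK1 was larger with shAPC. The difference between them (CTNNB1 effect minus shAPC effect) was 0.48 on the log2(TPM + 1) scale (SE 0.06, 95% interval 0.34 to 0.62, limma adjusted p = 4e-04). In that contrast 16.1% of 11741 genes were called, 13.3% in the higher direction. The median difference over all genes was 0.11, and it was 0.00 under median-ratio scaling, where the DKK1 difference was 0.37 (adjusted p = 0.0013). Vector, day and doxycycline cannot be told apart from the perturbation in this contrast.

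An antisense gene, PRKG1-AS1, overlaps exons of DKK1 in GENCODE v29, and the sources used here do not state whether counting used strand. Its level lay between 2.04 and 3.81 TPM over all libraries, far below that of DKK1. Without strand, reads of the 2 genes cannot be told apart where they overlap.

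NOTUM (ENSG00000185269; chromosome 17, 81952507 to 81961840, minus strand) went the other way and rose in both comparisons. Its level was 0.207, 0.0454 and 0.0395 TPM in the GFP libraries and 1.37, 2.51 and 2.08 TPM in the CTNNB1 libraries. It was 0.264, 0.0893 and 0.0442 TPM in the shNT1 libraries and 3.41, 4.33 and 2.87 TPM in the shAPC libraries. The perturbed and control libraries did not overlap in either comparison, as held in the higher direction for 30.2% and 14.5% of the genes tested. The 2 control groups overlapped with each other, while every shAPC library lay above every CTNNB1 library.

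The NOTUM difference on the log2(TPM + 1) scale was 1.43 in the CTNNB1 comparison (SE 0.16, limma adjusted p = 0.00023). It was 1.99 in the shAPC comparison (SE 0.15, limma adjusted p = 2.2e-05). Higher calls made up 16.3% of the genes tested in the first comparison and 7.24% in the second. By size of rise NOTUM ranked 22 and 7 among the genes tested. Adding 1 before the logarithm compresses a gene this low. With 0.1 added instead the values were 3.47 (adjusted p = 0.00031) and 4.06 (adjusted p = 9e-05), and the authors' deposited tables gave 4.28 (adjusted p = 0.011) and 4.79 (adjusted p = 0.0068).

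NOTUM entered the fits only through its perturbed libraries, since genes needed a mean of 1 TPM over the 6 libraries and its mean was 1.04 in the CTNNB1 comparison. A gene that passes in this way had to differ, so that step was removed and all genes above 0 were fitted. NOTUM then had adjusted p-values of 0.0034 and 0.0013, in fits that called 12.6% of 17849 genes (8.75% higher) and 10.7% of 17968 genes (4.12% higher). The difference between the NOTUM effects was -0.56 (SE 0.22, 95% interval -1.04 to -0.08) and was not called (limma adjusted p = 0.1).

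**Figure D2:**
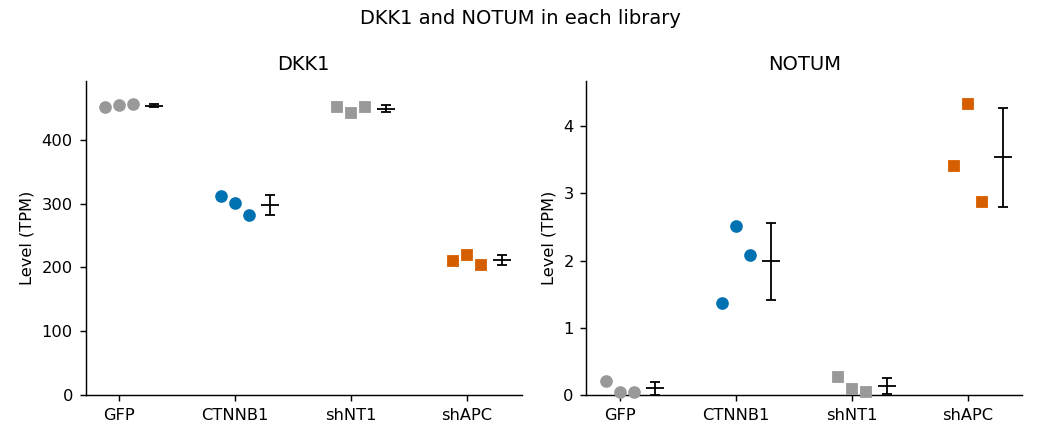
Level of DKK1 (left) and NOTUM (right) in TPM, a point per library, with the group mean and SD (n = 3) drawn beside the points. DKK1 goes from 454 and 448 TPM in the controls down to 298 TPM in CTNNB1 and 211 TPM in shAPC, while NOTUM goes from under 0.3 TPM up to 1.99 and 3.54 TPM.

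DKK1 made up nearly all transcripts of these 8 genes in every library, also where NOTUM had risen. This does not hold for secreted WNT inhibitors outside the 8. IGFBP4 averaged 146 TPM in GFP, 187 in CTNNB1, 178 in shNT1 and 188 in shAPC. IGFBP6 averaged 158, 106, 82.9 and 68.6 TPM in the same order. DKK1 supplied between 99.932% and 99.985% of the summed TPM of the 8 genes in GFP libraries and between 98.012% and 98.464% in shAPC libraries. The sum of the 8 genes went from 454 ± 2.1 TPM in GFP to 300 ± 15 TPM in CTNNB1, and from 448 ± 5.5 TPM in shNT1 to 215 ± 8.8 TPM in shAPC (SD, n = 3 each). The sum of the 7 genes other than DKK1 went from 0.229 ± 0.14 to 2.15 ± 0.53 TPM and from 0.211 ± 0.14 to 3.76 ± 0.65 TPM (SD, n = 3 each). In the perturbed libraries NOTUM made up most of that remainder, between 85.8% and 97.2%.

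The low members were described from their values. DKK3 (ENSG00000050165, chromosome 11) was at 0.0583, 0.0638 and 0 TPM in GFP and 0.124, 0.067 and 0.0312 TPM in CTNNB1. In the hairpin libraries it was at 0, 0.0314 and 0 TPM in shNT1 and 0.145, 0.0895 and 0.181 TPM in shAPC. The first pair of groups overlapped and the second did not. Shares of genes without overlap were computed only over genes with a mean of at least 1 TPM, so none is available at this level.

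DKK3 was too low for the fit of genes with a mean of 1 TPM. In the fit of all genes above 0 its shAPC difference was 0.17 on the log2(TPM + 1) scale (SE 0.04, limma adjusted p = 0.038), and that fit called 4.12% of its genes higher. That call was lost when any 1 of 5 libraries was left out (adjusted p from 0.08 to 0.12), which were the 3 shNT1 libraries and shAPC replicates 1 and 3. Without shAPC replicate 2 the adjusted p was 0.042. The call was also lost with the replicate number as a block (adjusted p = 0.13), under quantile normalization (0.051) and with no variance trend (0.059). In the authors' deposited table the log2 difference of DKK3 was 2.85 (adjusted p = 0.03), in a table where 9.01% of rows passed.

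FRZB (ENSG00000162998, chromosome 2) was at 0, 0.0353 and 0.0307 TPM in GFP and 0.103, 0.0494 and 0.0689 TPM in CTNNB1. These groups did not overlap, again with no share of genes to set beside it. FRZB was at 0.0293, 0.174 and 0 TPM in shNT1 and 0.0803, 0.033 and 0.0667 TPM in shAPC, with overlap. In the fit of all genes above 0 it was not called in either comparison (0.07, limma adjusted p = 0.17, and -0.01, limma adjusted p = 0.96).

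DKK4, SFRP5 and WIF1 were at 0 in nearly all libraries. DKK4 (ENSG00000104371, chromosome 8) was above 0 in GFP replicate 2 alone, at 0.165 TPM. SFRP5 (ENSG00000120057, chromosome 10) was above 0 in CTNNB1 replicate 2 (0.0385 TPM) and shAPC replicate 3 (0.0518 TPM). WIF1 (ENSG00000156076, chromosome 12) was above 0 in GFP replicate 1 (0.041 TPM) and shAPC replicate 1 (0.034 TPM). In the fits of all genes above 0 none of the 3 was called, with limma adjusted p-values from 0.5 to 0.73.

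A further reading of these genes came from the mean levels in the authors' deposited tables. In their table for CTNNB1 the mean log2 expression of SFRP1 (ENSG00000104332, chromosome 8) was the lowest value of the table, shared by 9451 rows. DKK4, SFRP5 and WIF1 each lay 0.2642 above it in the authors' deposited table. The lowest value itself was -5.76, which is too low for log2 of unscaled read counts with 0.5 added. If the counts were also scaled to the library total, a step of 0.2642 is what 1 read in 1 of 6 libraries gives. The sources used here do not state that scale.

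The targets of the antagonists were taken next, from a list of 18 receptors and partners. In the CTNNB1 comparison 12 were tested, 6 were called higher and 0 lower, with a median of 0.19, where all genes tested had a median of 0.06 and calls of 16.3% higher and 7.16% lower. In the shAPC comparison 13 were tested, 3 were called higher and 1 lower, with a median of 0.10, where all genes had a median of -0.04 and calls of 7.24% higher and 14.9% lower. KREMEN1, the DKK1 receptor that takes LRP5 and LRP6 off the surface, rose in both. It averaged 7.14 ± 0.29 TPM in GFP and 12.7 ± 0.60 TPM in CTNNB1 (0.75 on the log2 scale, limma adjusted p = 7.9e-05), and 9.07 ± 0.36 TPM in shNT1 and 16.2 ± 1.2 TPM in shAPC (0.77, limma adjusted p = 8.8e-05; SD, n = 3 each). Under median-ratio scaling LRP6 and RYK lost their CTNNB1 calls (adjusted p = 0.054 and 0.072), while FZD5 and FZD7 were called lower (-0.22 and -0.23). KREMEN2 stayed under 1 TPM on average in every group.

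LRP5, a co-receptor that DKK1 binds, was not called in either comparison (-0.04, limma adjusted p = 0.65, and -0.19, limma adjusted p = 0.092). LRP6, the other co-receptor, was called in the CTNNB1 comparison (0.33, limma adjusted p = 0.033) and not in the shAPC comparison (0.06, adjusted p = 0.64). The LRP6 call was lost without any 1 GFP library or without CTNNB1 replicate 2 (adjusted p from 0.063 to 0.098). CKAP4, another DKK1 receptor, was not called (adjusted p = 0.12 and 1). FZD2, a Frizzled receptor, rose in both (0.92, limma adjusted p = 0.0016, and 1.15, limma adjusted p = 0.00024), although like NOTUM it passed the level filter of the CTNNB1 comparison through its perturbed libraries (adjusted p = 0.0074 with no filter). ROR1, a WNT co-receptor, also rose in both (0.91 and 0.37, limma adjusted p = 5.5e-05 and 0.0086). FZD5 fell with shAPC (-0.41, limma adjusted p = 0.0034). Its CTNNB1 value was -0.15 (adjusted p = 0.1), called under median-ratio scaling (adjusted p = 0.012), and the difference between the comparisons was not called (adjusted p = 0.072).

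The level of DKK1 relative to its receptors was computed within each library from TPM. DKK1 transcripts outnumbered LRP6 transcripts 16.2 ± 0.44 to 1 in GFP and 8.45 ± 0.88 to 1 in CTNNB1, and 14.0 ± 0.84 to 1 in shNT1 and 6.34 ± 0.33 to 1 in shAPC (SD, n = 3 each). Relative to KREMEN1 the ratio was 63.6 ± 2.3 in GFP and 23.5 ± 0.32 in CTNNB1, and 49.4 ± 1.6 in shNT1 and 13.03 ± 0.72 in shAPC. Both ratios were lower in every perturbed library than in every control library of its pair. The fall of DKK1 given above enters both ratios, so this is not a separate result. Both are ratios of transcripts, and protein was not measured.

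**Figure D3:**
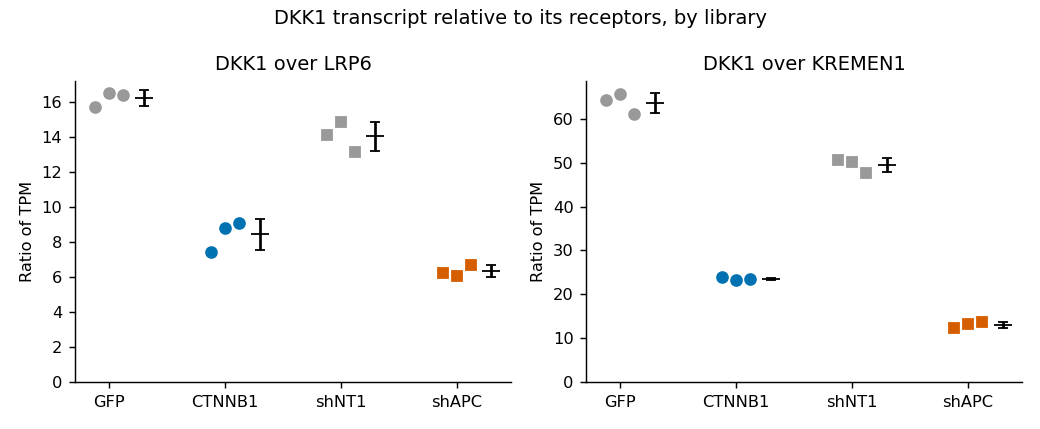
Ratio of the TPM of DKK1 to that of LRP6 (left) and of KREMEN1 (right), a point per library, with the group mean and SD (n = 3) beside the points. The ratio to KREMEN1 goes from 63.6 to 23.5 in the CTNNB1 pair and from 49.4 to 13.03 in the shAPC pair.

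Other secreted or extracellular regulators of WNT signalling, mostly inhibitors, were counted from a list of 19 genes. They are to be read against the same medians and shares of all genes (0.06, 16.3% higher and 7.16% lower with CTNNB1, and -0.04, 7.24% higher and 14.9% lower with shAPC). In the CTNNB1 comparison 5 were tested, 4 were called higher and 1 lower, with a median of 0.61. In the shAPC comparison 6 were tested, 2 were called higher and 1 lower, with a median of 0.09. SOSTDC1, which like DKK1 binds LRP5 and LRP6, moved against DKK1 in both. It was at 3.59, 3.71 and 3.13 TPM in GFP and 11.1, 12.5 and 12.2 TPM in CTNNB1 (1.53 on the log2 scale, SE 0.08, limma adjusted p = 4.6e-06). It was at 5.84, 4.36 and 5.61 TPM in shNT1 and 13.9, 13.6 and 12.5 TPM in shAPC (1.20, SE 0.10, limma adjusted p = 4.2e-05). The groups did not overlap in either comparison.

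TRABD2A, a protease that cuts WNT proteins, rose from 1.499 to 2.87 TPM with CTNNB1 (0.63, limma adjusted p = 0.0019). It rose from 2.17 to 3.06 TPM with shAPC (0.36, limma adjusted p = 0.029), a call that was lost with the replicate number as a block (adjusted p = 0.069). It was also lost without any 1 shAPC library or without shNT1 replicate 1 or 2 (adjusted p from 0.059 to 0.1). IGFBP4, an IGF-binding protein that also binds LRP6, was higher with CTNNB1 (0.36, limma adjusted p = 0.0062) and not called with shAPC (0.07, adjusted p = 0.48). GPC4, a glypican, was likewise called with CTNNB1 (0.61, limma adjusted p = 0.00072), while its shAPC value of 0.10 (adjusted p = 0.23) was called under median-ratio scaling (0.14, adjusted p = 0.049). IGFBP6 was lower with CTNNB1 (-0.58, limma adjusted p = 0.0039). It was called lower with shAPC (-0.27, limma adjusted p = 0.03), and that call was lost under median-ratio scaling (-0.23, adjusted p = 0.093), and without shAPC replicate 1 or 3 or shNT1 replicate 1 or 2 (adjusted p from 0.074 to 0.1).

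**Figure D4:**
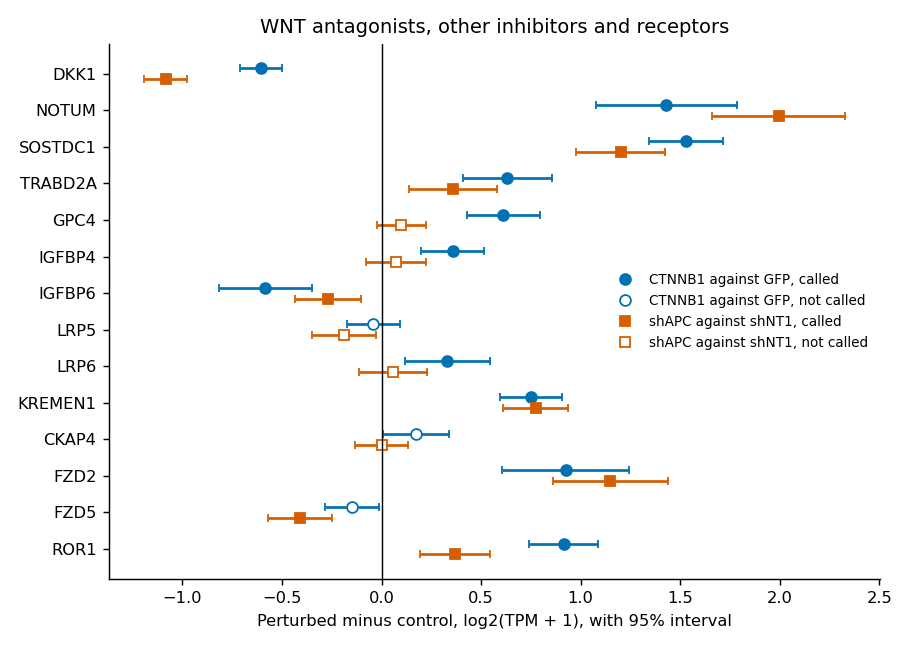
Difference between perturbed and control libraries on the log2(TPM + 1) scale, with 95% intervals, for DKK1, NOTUM, 5 other secreted or extracellular regulators and 7 receptors or partners. Filled symbols mark called genes. DKK1 lies at -0.60 and -1.08, while NOTUM, SOSTDC1 and KREMEN1 lie above 0 in both comparisons.

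The remaining lists give the other genes of the pathway. Over all genes tested, 16.3% were called higher and 7.16% lower with CTNNB1, and 7.24% higher and 14.9% lower with shAPC. Of 21 genes for WNT ligands and their secretion (the ligands that NOTUM, the SFRP proteins and WIF1 act on, with PORCN and WLS), 5 were tested in each comparison. With CTNNB1 4 were called higher and 0 lower, and with shAPC 2 higher and 1 lower (WNT7B). WNT11 rose in both, from 3.28 to 23.4 TPM with CTNNB1 (2.51, limma adjusted p = 5.7e-07) and from 1.53 to 18.3 TPM with shAPC (2.92, limma adjusted p = 3.5e-07). By size of rise it ranked 1 among the genes tested in each comparison. WNT10A, one of the 4 called higher with CTNNB1, passed the level filter only through its CTNNB1 libraries (0.835 TPM in GFP, 1.68 in CTNNB1). It had an adjusted p of 0.0071 with no filter. The calls of PORCN with CTNNB1 and of WLS with shAPC were lost under some alternatives (adjusted p = 0.072 for PORCN under median-ratio scaling, 0.085 for WLS without shAPC replicate 2). Of 9 genes of the R-spondin system, 4 were tested in each. The list holds R-spondins and their LGR receptors, and also ZNRF3 and RNF43, which remove WNT receptors and are opposed by R-spondins. LGR5 and ZNRF3 were the 2 called higher with CTNNB1, and LGR5, RNF43 and ZNRF3 the 3 called higher with shAPC. LGR4 was the 1 gene called lower in both. Of 10 WNT feedback and target genes, 6 were tested with CTNNB1 and 5 were called higher. NKD1, one of the 5, passed the filter only through its perturbed libraries, and without it 4 of 5 were called, with a median of 1.04. With shAPC 7 were tested and 6 were called higher. NKD1 and PROX1 passed only through the shAPC libraries, and without them 4 of 5 were called, with a median of 1.59. With no filter the adjusted p-values were 0.00021 for NKD1 with CTNNB1, and 0.00023 for NKD1 and 0.0011 for PROX1 with shAPC. None of the list was called lower in either comparison. DKK1 was lower in the same libraries in which genes of that list such as AXIN2, a negative regulator in the destruction complex, were higher (1.04 and 1.59, limma adjusted p = 3e-06 and 3.5e-07).

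Finally, the genes with the profile most like each called antagonist were found. Each gene's log2(TPM + 1) values were centred on their mean over the 12 libraries, and likeness was the root mean square difference from the antagonist, among 9439 genes with a mean of at least 5 TPM. For DKK1 the closest were HSD17B2 (0.063), which oxidises sex steroids, MYRFL (0.0786) and ATP1B1 (0.103), the beta subunit of the sodium pump. HSD17B2 averaged 62.4 ± 2.0 TPM in GFP, 42.7 ± 3.7 in CTNNB1, 65.5 ± 3.1 in shNT1 and 30.0 ± 1.3 in shAPC (SD, n = 3 each). For NOTUM the closest were ASCL2 (0.213), a transcription factor of intestinal stem cells, RGCC (0.272), a regulator of the cell cycle, and SOSTDC1 (0.318). ASCL2 averaged 1.95 ± 0.10 TPM in GFP, 7.98 ± 1.3 in CTNNB1, 1.76 ± 0.15 in shNT1 and 12.4 ± 0.55 in shAPC. NOTUM had a lower level than each of these 3 genes, so its closeness holds for the log2(TPM + 1) scale.

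**Figure D5:**
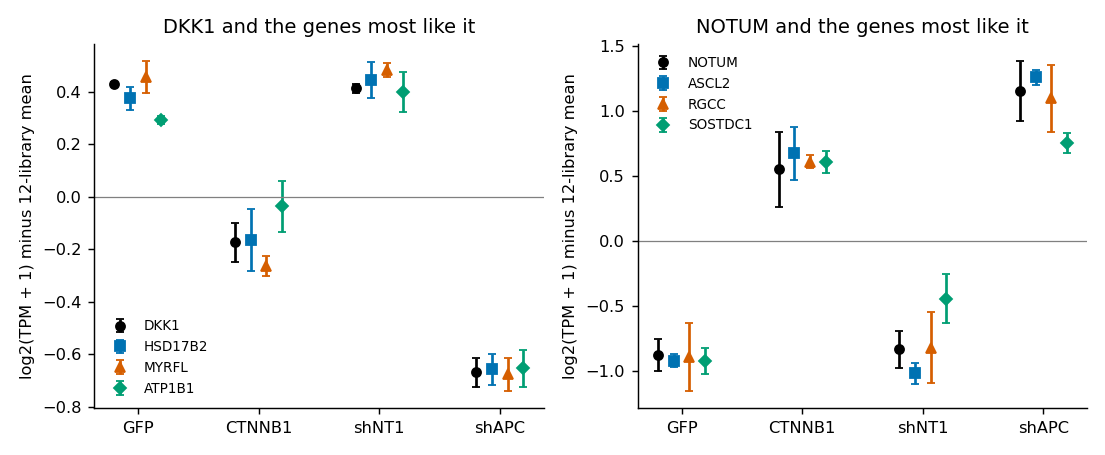
Group means of log2(TPM + 1), each gene centred on its mean over the 12 libraries, with the SD over 3 libraries, for DKK1 (left) and NOTUM (right) and the 3 genes closest to each. DKK1 goes from 0.43 in GFP to -0.17 in CTNNB1 and from 0.41 in shNT1 to -0.67 in shAPC, and HSD17B2 follows it within 0.06 on average.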

How the data were processed

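RNA-seq levels of 8 secreted WNT antagonists were compared in 12 HT-29 libraries. Per the submitters' processing notes, reads were aligned with STAR 2.7.3a to hg38 and compared with limma. The quantifier, annotation and strandedness are not given in the sources used here. The authors deposited a TPM table, with columns that each sum to 1000000, and a limma table for each comparison. Per the file headers, the deposited limma tables hold log2 fold changes, mean log2 expression, p-values and adjusted p-values. Their moderated t and log-odds score columns, also deposited by the authors, were not used.

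Differences on the log2(TPM + 1) scale were tested for each pair of groups in R 4.3.3 with limma 3.58.1 and a variance trend. Genes needed a mean of 1 TPM or more over the 6 libraries. The difference between the pairs was a contrast in a fit of all 12 libraries. Genes were called at a Benjamini-Hochberg adjusted p under 0.05. Simulated data with 200 changed genes were used to test the fits. Alternatives were no filter, a minimum mean of 5 TPM, a pseudocount of 0.1, scaling by median ratios, quantile normalization, no trend, one fit of all 4 groups, a replicate block and leaving out each library. All 8 antagonists were named whatever their values, and from other lists up to 4 called genes or those a sentence needed. The 3 genes most like each called antagonist were named too. Members and lists were chosen with earlier results of these data known.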

Additional observations from a re-analysis of the deposited data

Results flagged for a closer look

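The fall of DKK1 differed in size between the 2 perturbations in the contrast that tests this. The CTNNB1 effect minus the shAPC effect was 0.479 on the log2(TPM + 1) scale (SE 0.0645, limma adjusted p = 4e-04). In that contrast the median over all genes was 0.11, and 16.1% of genes were called. DKK1 was lower in 3 of 3 perturbed libraries than in every control library in each pair. The same held for 13% of the genes tested in the CTNNB1 pair and 26.4% in the shAPC pair. The DKK1 mean was 34.2% lower with CTNNB1 and 52.9% lower with shAPC. With all libraries kept, the other settings gave between 0.37 and 0.48 (adjusted p from 0.00024 to 0.004). Whether vector, collection day or doxycycline has a part in it cannot be told apart in this design.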

How the results depend on the processing

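DKK1 and NOTUM kept their direction and their side of the threshold under every alternative run in each comparison. The DKK1 difference ranged from -0.68 to -0.56 with CTNNB1 and from -1.09 to -1.01 with shAPC where all libraries were kept. NOTUM ranged from 1.22 to 3.47 and from 1.75 to 4.06 in the same alternatives, the high values being those with 0.1 added. With a mean TPM of at least 5 NOTUM was not tested. Without any 1 CTNNB1 library it fell under the filter in that comparison. With no filter, chosen after seeing the data, it was called when each of the 6 libraries was left out (1.31 to 1.59, adjusted p from 0.0022 to 0.021).

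Deviations of libraries with the same replicate number had correlations from 0.0697 to 0.216 with CTNNB1 and from -0.206 to -0.00638 with shAPC. Between libraries with different numbers they ran from -0.183 to 0.0686 with CTNNB1 and from -0.12 to 0.199 with shAPC. Whether equal numbers mark paired libraries is not stated in the labels. With the replicate block, DKK1 was -0.60 (adjusted p = 8.4e-05) and -1.08 (adjusted p = 6e-06), and NOTUM was 1.43 (adjusted p = 0.00059) and 1.99 (adjusted p = 4.3e-05). The block moved the genes called from 2730 to 2895 with CTNNB1, from 2615 to 1767 with shAPC, and from 1885 to 1145 for the difference between the comparisons. Besides the calls of DKK3 and TRABD2A, it ended that of WLS with shAPC (adjusted p = 0.065).

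Leaving out 1 library gave 1499 to 3190 genes called with CTNNB1, 1484 to 2252 with shAPC and 995 to 2143 for the difference. Counts moved by over 1.5 times without any GFP library or without CTNNB1 replicate 2 (1499 to 1760), without shAPC replicate 2 or 3 (1484 and 1646), and for the difference without GFP replicate 1 or 2 or shAPC replicate 2 or 3 (995 to 1246). The share of higher calls was 69.5% with CTNNB1 and 32.8% with shAPC, against 46.1% and 44.3% under median-ratio scaling. The cause was not tested. TPM without depth limits the 6 low genes, whose values above 0 cannot be turned into counts.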
